A study of Mus musculus with 9 samples.

Results

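The 10 genes described here encode 5 subunits of the transcription factor AP-1 (Fos, Fosb, Jun, Junb and Jund) and 5 further products of immediate early genes (Egr1, Klf6, Myc, Ier2 and Ier3). They were taken by name from the 16521 genes listed for mouse liver, and all 10 were present. The livers came from C57BL/6 mice in 3 groups of 3 samples. The SAR group was fed a diet deficient in methionine and choline (MCD), which makes rodent livers fatty, inflamed and fibrotic, and was treated with a high dose of sarsasapogenin (SAR), a plant steroid known from the rhizome of Anemarrhena asphodeloides. The model group was fed the MCD diet without SAR, and the normal group was given saline. The sample titles call the normal mice wt (wild type), and those of the model and SAR groups name no genotype. The amount of SAR, the time on the diet, and the sex and age of the mice are not given in the labels. Whether each sample was a separate mouse is not stated either, so the p-values reflect the spread of these samples alone, and that spread may be technical.

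Immediate early genes are transcribed within minutes of a stimulus, without prior protein synthesis, through kinases that act on factors already bound to their promoters. FOS proteins pair with JUN proteins, and JUN proteins also pair with each other, to form AP-1, which binds DNA through a basic leucine zipper. In the liver these genes are known for their early response to partial hepatectomy, to toxins and to inflammatory cytokines, and they also respond to handling and to tissue dissociation. Whole liver was sequenced, so fewer cells of a type and less RNA per cell cannot be told apart.

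Levels are normalised reads, that is reads per library divided by a size factor common to all 9 libraries. Only group means were in the files, and the reads of single libraries were recovered from them. The libraries of a group therefore have no replicate number, and the letters a, b and c order them by falling size factor. Between 5783862 and 8497185 reads per library were recovered, in genes that held 48.6% of the summed means of the SAR group, 57.6% of the model group and 41.7% of the normal group. Each of the 10 genes was recovered in all 9 libraries and passed the filter, a mean of at least 10 normalised reads over the 6 libraries compared. Fosb passed only through the SAR and model libraries in which it was high. Library model c correlated with the other model libraries at r = 0.924 and 0.937 across 12198 genes, against 0.979 between model a and model b. Library normal c correlated with the other normal libraries at 0.932 and 0.922, against 0.976 between normal a and normal b. Of 12 hepatocyte markers 3 could be split by library, and they summed to 14337 to 15428 in SAR, 4775 to 9867 in model and 14385 to 15661 in normal libraries.

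In model livers 7 of the 10 genes rose relative to normal livers, namely Klf6, Ier3, Myc, Jun, Fos, Jund and Junb, and none fell. Of all 12339 genes tested in this comparison 20.1% rose and 19.3% fell. In SAR livers 4 of the 10, Klf6, Ier3, Myc and Jun, fell relative to model livers and none rose, where 16.5% of 12414 genes fell and 12.4% rose. Relative to normal livers, Fos alone was higher in SAR livers, where 1.73% of 11678 genes were higher and 1.84% lower. Calls are adjusted p-values below 0.05 in limma adjusted by Benjamini-Hochberg across every gene tested, on log2(value + 1). The count of genes that fell in model livers was also 0 at an unadjusted p below 0.05 and in limma voom, and by both so were the count that rose in SAR against model livers and the count that was lower in SAR than in normal livers. The median log2 fold change of the 10 genes was 1.67 for model minus normal, against 0.02 for all genes tested. It was -0.39 for SAR minus model and 0.96 for SAR minus normal, against 0.00 for all genes in both. The model libraries stand in 2 of these comparisons and the normal and SAR libraries in 2 each, so the 3 comparisons are not independent.

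**Figure D1:**
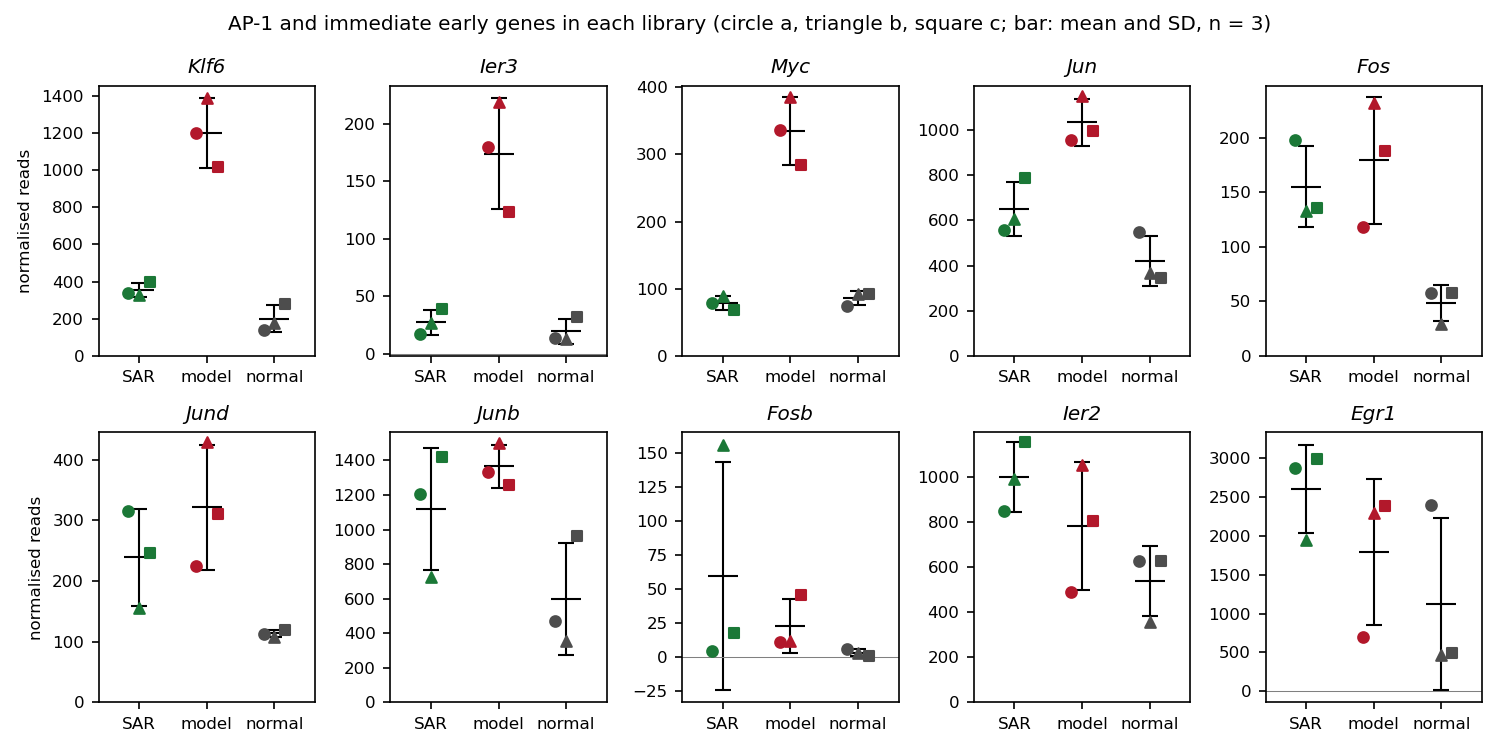
Normalised reads of the 10 genes (linear vertical axes, 1 per gene) in each library, with groups in the order SAR, model and normal along the horizontal axis; symbols mark libraries a, b and c, and bars give the mean and SD (n = 3). For Klf6, Ier3, Myc and Jun the 3 model libraries lie above all 3 SAR and all 3 normal libraries, whereas for Fos, Jund and Junb the SAR and model libraries overlap.

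The sequences before the transcription starts of 3 genes that rose in model livers and fell in SAR livers, and of Fos, which did not pass for SAR minus model, are given to show the elements they carry. They are the 250 bases upstream of the start in RefSeq, build GRCm38.p6, written 5′ to 3′ on the strand of the gene. RefSeq promoters were at hand for 7 of the 10 genes, not for Myc, Egr1 and Ier2. Capitals mark TGACNTCA (the cAMP response and JUN-type AP-1 element), TGACG (its first part), the NF-kB site and TATAAA.
Klf6 (chr13:5861239-5861488, plus strand): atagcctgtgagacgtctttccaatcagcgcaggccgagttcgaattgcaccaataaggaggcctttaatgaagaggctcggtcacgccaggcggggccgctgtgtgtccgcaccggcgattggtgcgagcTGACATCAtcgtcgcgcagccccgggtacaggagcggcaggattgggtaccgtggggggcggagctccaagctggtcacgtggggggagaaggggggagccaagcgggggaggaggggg
Jun (chr4:95052223-95052472, minus strand): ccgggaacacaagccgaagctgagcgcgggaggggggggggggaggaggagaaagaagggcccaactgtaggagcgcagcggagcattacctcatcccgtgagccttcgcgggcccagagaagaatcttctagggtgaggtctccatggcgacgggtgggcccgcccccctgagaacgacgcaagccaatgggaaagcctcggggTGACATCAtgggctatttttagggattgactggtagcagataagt
Ier3 (chr17:35821463-35821712, plus strand): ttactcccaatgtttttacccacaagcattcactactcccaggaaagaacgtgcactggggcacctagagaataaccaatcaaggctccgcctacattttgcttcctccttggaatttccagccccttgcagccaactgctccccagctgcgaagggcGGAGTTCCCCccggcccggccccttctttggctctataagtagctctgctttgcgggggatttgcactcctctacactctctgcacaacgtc
Fos (chr12:85473640-85473889, plus strand): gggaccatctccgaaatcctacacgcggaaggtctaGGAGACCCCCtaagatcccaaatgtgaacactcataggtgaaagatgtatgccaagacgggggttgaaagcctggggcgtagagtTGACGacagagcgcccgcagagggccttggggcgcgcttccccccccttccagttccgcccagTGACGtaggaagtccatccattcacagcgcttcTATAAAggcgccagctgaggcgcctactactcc

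TGACNTCA was found in Jun, 45 bases before the start, and in Klf6, 119 bases before it, in both as TGACATCA. Of 32851 mouse promoters of the same length 7.49% held it on either strand. The NF-kB site was found in Ier3 (position -92) and in Fos (position -214), as well as in Fosb, and in 3.9% of all promoters. Fos held TGACG at -129 and -66, a motif of 17.8% of promoters, and TATAAA at -33, a motif of 12.4%. TGACG was also found in Fosb (position -60) and in Junb (position -106). The AP-1 element TGANTCA (6.75% of promoters) and the CArG box bound by serum response factor (1.47%) were not found in these windows in any of the 7 genes. Bases further upstream were not searched, so these 7 genes may hold either element there. The RefSeq starts of Jund and Junb did not match a GENCODE transcript over their first 50 bases, so those windows may lie before another start. Klf6 also held the E-box CACGTG at -43, a motif of 6.02% of promoters. Both strands were searched, and a TGACG within TGACNTCA counted for both motifs.

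Of the JUN proteins, JUN is the strongest activator. Jun (ENSMUSG00000052684, chromosome 4) had 559, 605 and 786 normalised reads in SAR livers, 956, 1152 and 993 in model livers, and 547, 369 and 345 in normal livers. The model libraries lay above the others without overlap, and the SAR libraries lay above the normal ones. Jun rose in model over normal livers by 1.32 on the log2 scale (SE 0.20, limma adjusted p = 0.00326). It fell in SAR livers to 650 ± 120, against 1034 ± 104 in model livers (SD, n = 3), a log2 fold change of -0.68 (95% interval -1.07 to -0.29, limma adjusted p = 0.0193). That call was lost without SAR a (limma adjusted p = 0.0536), without SAR b (0.0788) and without model b (0.0893). For SAR minus normal the log2 fold change was 0.64 (SE 0.21), which missed the threshold (limma adjusted p = 0.106).

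The transcripts of Jund, whose protein is held at a steady level in many resting cells, and of Junb, whose protein can restrain JUN, rose in model livers too. Jund (ENSMUSG00000071076, chromosome 8) had 315, 155 and 247 normalised reads in SAR livers, 225, 429 and 311 in model livers, and 112, 108 and 120 in normal livers. The normal libraries were close together and below all 6 MCD libraries, while SAR and model libraries overlapped. Its log2 fold change was 1.45 for model minus normal (SE 0.24, limma adjusted p = 0.00445). For SAR minus model it was -0.44 (95% interval -1.12 to 0.24, limma adjusted p = 0.295), an interval that holds both no change and a fall as large as that of Jun. Junb (ENSMUSG00000052837, chromosome 8) had 1207, 728 and 1417 in SAR livers, 1334, 1500 and 1260 in model livers, and 473, 356 and 964 in normal livers. The high normal library was normal c, which also stood apart across all genes. The log2 fold change of Junb for model minus normal was 1.32 (SE 0.33, limma adjusted p = 0.0183). The call was lost without model a (limma adjusted p = 0.0615), without model b (0.067) and without normal a (0.0658). For SAR minus model the log2 fold change was -0.34 (95% interval -0.88 to 0.21, limma adjusted p = 0.311). Exons of Junb overlap those of Prdx2, a peroxide-reducing enzyme, on the opposite strand, and the strand setting of the counting is not given in the sources used here, so reads of the pair may be mixed. Prdx2 rose by 0.42 in model over normal livers (SE 0.13, limma adjusted p = 0.0411) and had a log2 fold change of 0.09 for SAR minus model (limma adjusted p = 0.695). Antisense genes also overlap Jun and Jund (Junos and Gm11175), and both are without a row in the tables used here.

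FOS proteins do not pair with each other and bind DNA with a partner, such as a JUN protein. Fos (ENSMUSG00000021250, chromosome 12) had 198, 133 and 135 normalised reads in SAR livers, 118, 232 and 188 in model livers, and 57.7, 29.2 and 57.4 in normal livers. All 6 MCD libraries lay above the 3 normal ones, and the SAR and model libraries overlapped. Fos rose in model over normal livers by 1.89 (SE 0.36, limma adjusted p = 0.00698). For SAR minus model the log2 fold change was -0.17 (95% interval -0.80 to 0.45, limma adjusted p = 0.658). It was higher in SAR livers, at 155 ± 37 against 48.1 ± 16.4 in normal livers (SD, n = 3), by a log2 fold change of 1.71 (95% interval 0.99 to 2.44, limma adjusted p = 0.0338). That call rested on each of 5 libraries: limma adjusted p was 0.116 without SAR a, 0.0973 without SAR b, 0.0743 without SAR c, 0.0848 without normal a and 0.0925 without normal b. It held without normal c (0.0132).

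Fosb, whose protein has a well-known short form in neurons, was the scarcest of the 10. Fosb (ENSMUSG00000003545, chromosome 7) had 4, 129 and 14 reads in SAR livers, 15, 16 and 57 in model livers, and 6, 3 and 1 in normal livers. These came to 4.77, 156 and 18 normalised reads in SAR livers, 10.8, 12.2 and 45.4 in model livers, and 5.77, 3.24 and 1.1 in normal livers. The model libraries did not overlap with the normal ones, and library SAR b lay far above the other SAR libraries. The log2 fold change was 2.30 for model minus normal (SE 0.78, limma adjusted p = 0.0501), just outside the threshold. It was 0.42 for SAR minus model (95% interval -2.03 to 2.87, limma adjusted p = 0.791) and -0.88 without SAR b. For 5 of the 10 genes, Klf6, Fos, Jund, Junb and Egr1, SAR b was instead the lowest SAR library, a count not made over all genes.

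KLF6 is a zinc finger protein induced in injured tissue and in activated stellate cells. Klf6 (ENSMUSG00000000078, chromosome 13) had 338, 330 and 398 normalised reads in SAR livers, 1198, 1390 and 1016 in model livers, and 141, 177 and 282 in normal livers. The 3 groups did not overlap, with normal lowest and model highest. Klf6 rose in model over normal livers by 2.63 (SE 0.26, limma adjusted p = 0.00104). It fell in SAR livers to 355 ± 37.4, against 1201 ± 187 in model livers (SD, n = 3), by a log2 fold change of -1.75 (95% interval -2.12 to -1.38, limma adjusted p = 0.000496). For SAR minus normal the log2 fold change was 0.88 (95% interval 0.32 to 1.44), which missed the threshold (limma adjusted p = 0.078).

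MYC drives genes of growth and ribosome production as a dimer with MAX. Myc (ENSMUSG00000022346, chromosome 15) had 78.8, 88.5 and 68 normalised reads in SAR livers, 336, 385 and 284 in model livers, and 74, 91.9 and 91.7 in normal livers. The SAR and normal libraries shared 1 range, and the model libraries lay above it. Myc rose in model over normal livers by 1.95 (SE 0.18, limma adjusted p = 0.000948). It fell in SAR livers to 78.4 ± 10.2, against 335 ± 50.8 in model livers (SD, n = 3), by -2.08 (95% interval -2.51 to -1.64, limma adjusted p = 0.000456). The log2 fold change of SAR minus normal was -0.13 (95% interval -0.62 to 0.36, limma adjusted p = 0.732).

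IER3 is a short-lived protein that acts in cell survival. Ier3 (ENSMUSG00000003541, chromosome 17) had 16.7, 26.7 and 38.5 normalised reads in SAR livers, 180, 219 and 123 in model livers, and 13.5, 13 and 32 in normal livers. The model libraries were far above both other groups, which overlapped. Its log2 fold change of 3.18 for model minus normal (SE 0.40, limma adjusted p = 0.00206) was the largest of the 10. It fell in SAR livers to 27.3 ± 10.9, against 174 ± 48.1 in model livers (SD, n = 3), by -2.67 (95% interval -3.46 to -1.88, limma adjusted p = 0.00159). For SAR minus normal it was 0.51 (95% interval -0.64 to 1.66, limma adjusted p = 0.546).

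Egr1 and Ier2, both abundant, passed in no comparison. EGR1 is a zinc finger protein activated by growth factors and stress. Egr1 (ENSMUSG00000038418, chromosome 18) had 2878, 1950 and 2986 normalised reads in SAR livers, 704, 2294 and 2384 in model livers, and 2402, 470 and 493 in normal livers. Library model a was far below the other model libraries and normal a far above the other normal ones, so that the highest library exceeded the lowest 3.39-fold in the model group and 5.11-fold in the normal group. The log2 fold change was 0.93 for model minus normal (95% interval -0.71 to 2.57, limma adjusted p = 0.318) and 0.71 for SAR minus model (95% interval -0.28 to 1.69, limma adjusted p = 0.244). For SAR minus normal it was 1.64 (limma adjusted p = 0.118), and without normal a it was 2.41 and passed (limma adjusted p = 0.0147). IER2 is a nuclear protein of the immediate early class. Ier2 (ENSMUSG00000053560, chromosome 8) had 848, 991 and 1158 in SAR livers, 490, 1053 and 805 in model livers, and 628, 359 and 628 in normal livers. The SAR libraries lay above all normal ones, while the model libraries overlapped with both. The log2 fold change of Ier2 was 0.52 for model minus normal (limma adjusted p = 0.23) and 0.41 for SAR minus model (95% interval -0.19 to 1.01, limma adjusted p = 0.27). It was 0.93 for SAR minus normal (95% interval 0.39 to 1.46, limma adjusted p = 0.0661).

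**Figure D2:**
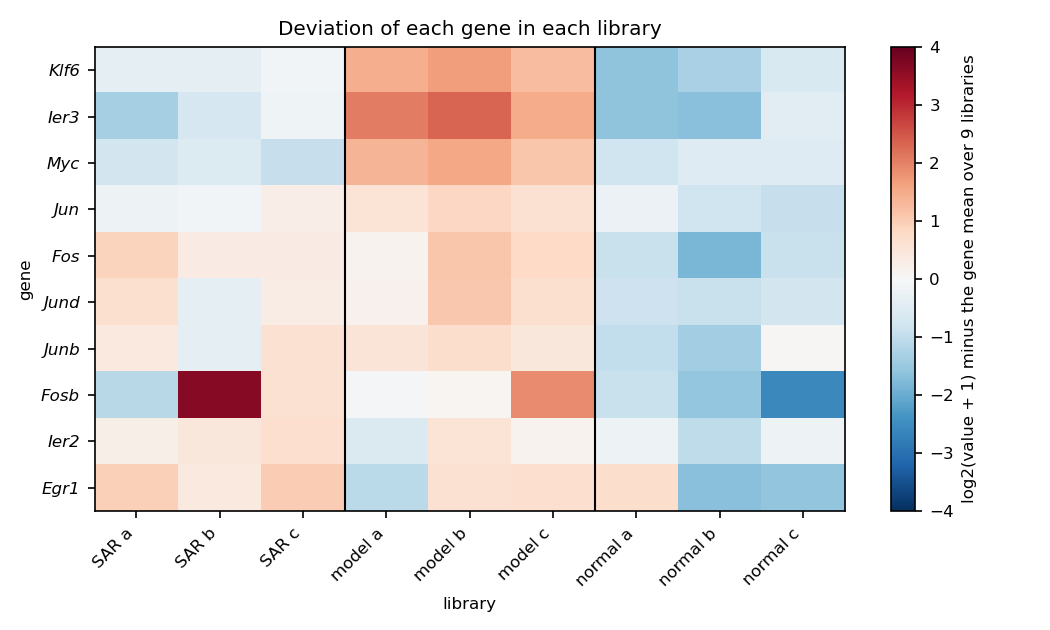
Log2(value + 1) of each gene (rows) in each of the 9 libraries (columns, SAR, model and normal) minus the mean of the gene over the 9 libraries; red is above and blue below that mean. Klf6, Ier3 and Myc are red in the 3 model libraries only, Fos is red in all 6 SAR and model libraries, Egr1 is red in all SAR libraries and in normal a but blue in model a, and Fosb is reddest in SAR b.

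Library model b was the highest of the model libraries for 8 of the 10 genes and model a the lowest for 6. Library SAR c was the highest SAR library for 6 genes, and normal b the lowest normal library for 6. How often each library was highest or lowest over all genes was not counted. The coefficient of variation of Myc was 13% in SAR, 15.2% in model and 11.9% in normal livers. Egr1 reached 98.9% in normal livers and Fosb 141% in SAR livers.

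Against normal livers, the SAR libraries lay above the normal ones without overlap for 5 of the 10 genes, Fos, Jun, Jund, Ier2 and Klf6, where 15.8% of all genes tested did so. None of the 10 lay below without overlap, where 17.4% did. At an unadjusted p below 0.05 the count of higher genes was 8, against 1 after adjustment. Among the 8 was Fosb, which met the filter only through the SAR libraries. The share of all genes at the unadjusted threshold was not counted, so the 8 have no background to be read against. Without normal c, 5 of the 10 passed and were higher in SAR livers, where 4.65% of all genes were: Fos, Klf6 (log2 fold change 1.16), Junb (1.39), Ier2 (1.06) and Jund (1.05). Without normal c the number of all genes called was 1082, against 417 with it. For model minus normal 8 of the 10 lay above without overlap, where 27.3% of all genes did, and none below (26.7%). The 8 include Fosb, which had a mean of 3.37 in normal livers and met the filter only through the model libraries. For SAR minus model 4 lay below, where 24.0% did, and none above (21.0%).

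**Figure D3:**
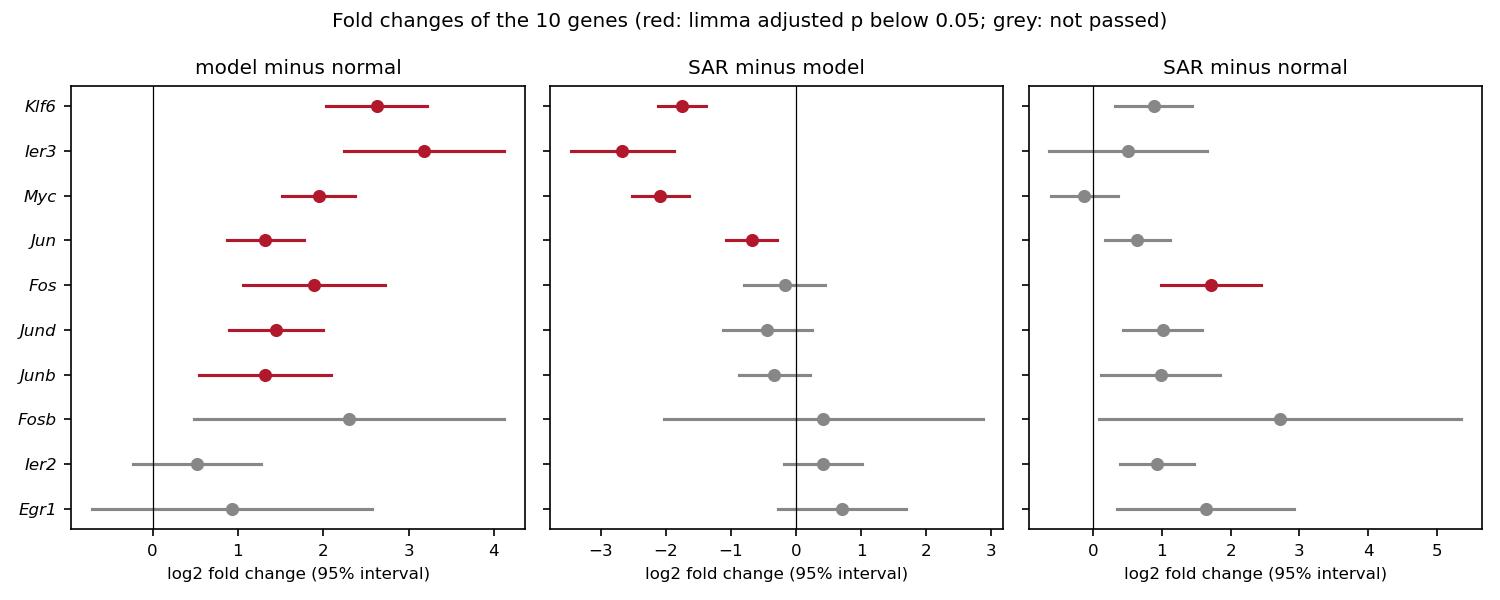
Log2 fold changes of the 10 genes (rows) with 95% intervals, for model minus normal, SAR minus model and SAR minus normal; red marks a limma adjusted p below 0.05. In the middle panel the intervals of Klf6, Ier3, Myc and Jun lie below 0, and those of the other 6 genes cross it.

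The order of the genes by level can be compared only per length, and differed between groups. Per kilobase of exon, SAR livers had most reads from Ier2 (656 normalised reads per kilobase), Egr1 (581) and Junb (486). In model livers Junb (593) came before Ier2 (514), Egr1 (400), Jun (324) and Klf6 (274). In normal livers Ier2 (354), Junb (260) and Egr1 (250) led, and Jun followed at 132. Klf6 stood at 80.9 in SAR livers, 274 in model livers and 45.6 in normal livers, and Ier3 at 24.1, 154 and 17.2 in the same groups. Fosb was last in all 3 groups, at 9.56 in SAR, 3.65 in model and 0.54 in normal livers. The lead of Ier2, Egr1 and Junb over one another lies within the spread of their libraries, as their coefficients of variation reached 36%, 98.9% and 54%. Lengths are those of merged exons in GENCODE vM21 (GRCm38), which is not the authors' build.

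The other AP-1 family holds the ATF, BATF, JDP and small MAF proteins, among others, whose leucine zippers pair with those of FOS or JUN or with each other. Of 13 tested in model against normal livers 6 rose and 1 fell, where 20.1% of all genes rose and 19.3% fell, and the median log2 fold change was 0.56 against 0.02 for all genes. Of the 6, Batf and Batf2 met the filter on low values only through the model libraries. Atf3, a stress-induced factor, had 166, 144 and 146 normalised reads in SAR livers, 620, 881 and 685 in model livers, and 58.6, 51.9 and 65.2 in normal livers, so that no 2 groups overlapped. Atf3 rose by 3.60 in model livers (SE 0.18, limma adjusted p = 0.000147) and fell by 2.24 in SAR against model livers (SE 0.17, limma adjusted p = 0.000208). Maff, a small MAF protein, had 197, 296 and 506 normalised reads in SAR livers, 297, 373 and 667 in model livers, and 67.3, 63.8 and 40.9 in normal livers. Its log2 fold change was 2.88 for model minus normal (limma adjusted p = 0.00155). The SAR and model libraries of Maff overlapped, and Maff was higher in SAR than in normal livers, by 2.44 (limma adjusted p = 0.0248). That call of Maff and the one of Atf3 for SAR minus normal (1.37, limma adjusted p = 0.0248) were each lost without any 1 of SAR a, SAR b, SAR c, normal a or normal b. Batf rose by 2.12 in model livers (limma adjusted p = 0.0355), which no longer passed without any 1 of model a (0.123), model b, model c, normal a or normal b. In SAR against model livers 3 of 13 fell and 1 rose, where 16.5% of all genes fell and 12.4% rose, with a median of -0.59 against 0.00. Besides Atf3, Mafk fell by 0.76 (limma adjusted p = 0.0173) and Jdp2 by 1.74 (limma adjusted p = 0.0304), the last not without model a (0.103) or without model b (0.0954).

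Of 16 other immediate early transcription factors tested, 5 rose and 2 fell in model against normal livers, with a median log2 fold change of 0.58 against 0.02 for all genes. The 16 include Nfkbia, which encodes an inhibitor of NF-kB and not a transcription factor. Of all genes 20.1% rose and 19.3% fell. Without normal c and model c together, 9 of the 16 rose and 2 fell, where 29.8% of all genes rose and 28.2% fell. Of the 5 genes that rose, Egr2, Egr3 and Nr4a3 averaged 2.64, 2.84 and 6.56 normalised reads in normal livers and met the filter only through the model libraries. Egr2, a relative of EGR1, had 20.3, 25.4 and 27 normalised reads in SAR livers, 98.2, 84.5 and 58.1 in model livers, and 5.77, 2.16 and 0 in normal livers, and no 2 groups overlapped. Egr2 rose by 4.84 in model livers (SE 0.72, limma adjusted p = 0.00335) and fell by 1.66 in SAR against model livers (SE 0.31, limma adjusted p = 0.00603, but 0.0693 when all 9 libraries were fitted together). Egr1, in contrast, passed in neither comparison, and the difference between Egr1 and Egr2 was not tested. Klf9, a glucocorticoid-responsive relative of KLF6, fell by 1.23 in model livers (limma adjusted p = 0.00439). Egr3 (3.01, limma adjusted p = 0.0363), Nr4a3 (2.02, limma adjusted p = 0.0132) and, downward, Nfil3 (-0.85, limma adjusted p = 0.0123) passed for model minus normal, but not in all fits that left out 1 library. Egr3 was lost without model b, model c, normal a or normal c, Nr4a3 without model a or model b, and Nfil3 without model a. In SAR against model livers 7 of 16 fell and 2 rose, where 16.5% of all genes fell and 12.4% rose, with a median of -0.72. Of the 7, Nr4a2 met the filter only through the model libraries. Among the calls, those of Klf4 (-2.30, limma adjusted p = 0.0131) and Nr4a2 (-2.04, limma adjusted p = 0.0304) were lost when model a was left out. So were those of the risers Klf9 (0.85, limma adjusted p = 0.0157) and Nfil3 (0.81, limma adjusted p = 0.0322). The call of Klf4 was also lost without model b, that of Klf9 without SAR b and that of Nfil3 without SAR a or SAR b. The call of Nr4a2 was also lost without SAR b, SAR c or model b. With all 9 libraries fitted together Nr4a2 did not pass either (limma adjusted p = 0.149). Only 1 of the 9 calls, that of Egr2, passed whichever library was left out. In SAR against normal livers 0 of 13 passed in limma and 0 in limma voom. Of all genes 1.73% were higher and 1.84% lower in limma. At an unadjusted p below 0.05, 3 of the 13 were higher and 1 lower, but the share of all genes was not counted there. Without normal c 3 were higher, where 4.65% of all genes were.

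Immediate early genes whose products are not transcription factors, among them phosphatases, RNA-binding proteins and kinases, were also compared. Of 26 tested 12 rose and 1 fell in model against normal livers, where 20.1% of all genes rose and 19.3% fell. The median was 0.98 against 0.02 for all genes, 2 of the 12, Gadd45a and Ier5l, met the filter only through the model libraries, and 7 of the 13 calls passed whichever library was left out. Dusp5, a nuclear phosphatase of ERK, had 27.5, 44.8 and 27 normalised reads in SAR livers, 103, 155 and 100 in model livers, and 11.5, 10.8 and 18.8 in normal livers. Dusp5 rose by 3.04 in model livers (limma adjusted p = 0.00144) and fell by 1.83 in SAR against model livers (limma adjusted p = 0.00407). Gadd45a, a growth arrest gene, rose by 3.30 in model livers (limma adjusted p = 0.00569). Dusp2 rose by 3.36 (limma adjusted p = 0.0387), and Gadd45g, a relative of Gadd45a, fell by 1.24 (limma adjusted p = 0.0311). Both calls were lost without model a, without model b and without model c, that of Gadd45g also without normal b or normal c, and that of Dusp2 with a pseudocount of 0.5. In SAR against model livers 11 of 27 fell and 2 rose, where 16.5% of all genes fell and 12.4% rose. The median was -0.65 against 0.00, and 5 of the 13 calls passed whichever library was left out. Ier5, an immediate early gene like Ier2, had 159, 136 and 112 normalised reads in SAR livers, 451, 461 and 324 in model livers, and 85.5, 91.9 and 145 in normal livers. Ier5 fell by 1.60 in SAR against model livers (SE 0.20, limma adjusted p = 0.00149). Plk2 fell by 1.46 (limma adjusted p = 0.0125), while Errfi1, an inhibitor of the EGF receptor, and Trib1 rose by 1.12 (limma adjusted p = 0.0228) and 0.85 (limma adjusted p = 0.0206). These 3 calls were lost without SAR b, model a or model b, those of Errfi1 and Trib1 also without SAR c. In SAR against normal livers 2 of 26 were lower, where 1.84% of all genes were, namely Gadd45g (-2.20, limma adjusted p = 0.0296) and Sgk1 (-0.87, limma adjusted p = 0.0392), both lost without any 1 of SAR a, SAR b, SAR c or normal b. Without normal c, 5 were higher and 2 lower, where 4.65% and 4.63% of all genes were.

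Of 17 MAP kinases and related kinases upstream of these genes 4 rose and 4 fell in model against normal livers, with a median of -0.01. These shares lie near those of all genes (20.1% and 19.3%). Mapk3, which encodes ERK1, rose by 1.28 (SE 0.18, limma adjusted p = 0.00278), whereas Mapk14, which encodes p38 alpha, fell by 1.01 (SE 0.17, limma adjusted p = 0.0051). Map2k4, a kinase of JNK, fell by 0.75 (limma adjusted p = 0.00838), and Rps6ka1, an RSK kinase below ERK, rose by 1.21 (limma adjusted p = 0.00327). Map3k8 also rose by 1.21 (limma adjusted p = 0.0206), which did not pass without model a, normal a or normal b. In SAR against model livers 2 of 17 rose and 3 fell, also near the shares of all genes (12.4% and 16.5%). Map3k5, which encodes ASK1, rose by 0.91 (limma adjusted p = 0.00932). Map2k6 rose by 1.55 (limma adjusted p = 0.0154), while Rps6ka3 fell by 0.80 (limma adjusted p = 0.0156), Rps6ka1 by 0.78 (limma adjusted p = 0.0124) and Mapk3 by 0.72 (limma adjusted p = 0.0185). The last 4 calls were lost without SAR b and without model b, and some of them without SAR c or model a. In SAR against normal livers Map2k7 was higher by 0.63 (limma adjusted p = 0.0497) and Mapk14 lower (-0.84, limma adjusted p = 0.039), both lost without any 1 library but normal c, and the first also in limma voom. Of 13 factors of the SRF, TCF, CREB and MEF2 families, which bind immediate early promoters, 3 rose and 1 fell in model livers, where 20.1% of all genes rose and 19.3% fell. Atf1 fell by 0.95 (SE 0.14, limma adjusted p = 0.00323). Mef2c rose by 1.18 (limma adjusted p = 0.0406), Mrtfb by 0.85 (limma adjusted p = 0.0153) and Mrtfa by 0.58 (limma adjusted p = 0.0244). These 3 calls were lost without model a and without model b, those of Mef2c and Mrtfa also without normal a or normal b, and that of Mef2c also without normal c and in limma voom. In SAR against model livers 0 rose and 3 fell in limma, where 12.4% of all genes rose and 16.5% fell, 0 rose and 2 fell in limma voom, and 1 was higher at an unadjusted p below 0.05. Elk3, a partner of SRF, fell by 1.66 (limma adjusted p = 0.00805). Mef2c fell by 1.81 (limma adjusted p = 0.0117) and Mrtfa by 0.83 (limma adjusted p = 0.0222), both not without model a or without model b. Transcript levels do not report the phosphorylation by which these kinases act.

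Myc rose in model livers, and the levels of its dimer partners and of genes reported as its targets were also compared. Of 10 partners and relatives 2 rose and 2 fell in model against normal livers, with a median of 0.18. These shares are about those of all genes (20.1% and 19.3%). Mlx, a partner of the glucose-responsive MLX-interacting factors, fell by 0.99 (limma adjusted p = 0.009), and Max rose by 0.53 (limma adjusted p = 0.0155), which did not pass without model a, model b, normal a or normal b. Mycl, a MYC relative, fell by 0.74 (limma adjusted p = 0.0219, lost without model b, normal a or normal b), and Mlxip rose by 0.52 (limma adjusted p = 0.0493, lost without any 1 library but model c). Of 11 tested in SAR against model livers 2 rose and 1 fell, where 12.4% of all genes rose and 16.5% fell. Mlxipl, which encodes the carbohydrate response factor ChREBP, had 4548, 3342 and 2384 normalised reads in SAR livers, 1425, 1256 and 1283 in model livers, and 1568, 1425 and 1035 in normal livers. Mlxipl rose by 1.33 in SAR against model livers (SE 0.24, limma adjusted p = 0.00549) and was higher by 1.32 in SAR than in normal livers (limma adjusted p = 0.0363, lost without any 1 library but normal c). Mlx rose by 0.56 in SAR against model livers (limma adjusted p = 0.044, lost without any 1 library but model c), and Mlxip fell by 0.67 (limma adjusted p = 0.0265, lost without SAR b, model a or model b). Of 17 genes reported as MYC targets 1 rose and 4 fell in model livers, with a median of 0.06, where 20.1% of all genes rose and 19.3% fell. Without normal c and model c together 4 rose and 4 fell, where 29.8% of all genes rose and 28.2% fell. Nolc1, a nucleolar protein, fell by 0.68 (limma adjusted p = 0.00787) and Riox2 by 1.19 (limma adjusted p = 0.00603). Odc1, the first enzyme of polyamine synthesis, fell by 1.37 (limma adjusted p = 0.0159, lost without model a, model b or normal a), and Tert rose by 0.91 (limma adjusted p = 0.0492, lost without any 1 of the 6 libraries). Of 18 tested in SAR against model livers 0 rose in limma, in limma voom and at an unadjusted p below 0.05, and 1 fell (16.5% of all genes), the cyclin gene Ccnd2, by 1.33 (SE 0.26, limma adjusted p = 0.00736). In SAR against normal livers 1 of 17 was lower (1.84% of all genes), again Odc1 (-1.48, limma adjusted p = 0.0364, lost without any 1 library but normal c).

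Of 20 genes reported as AP-1 targets 15 rose and 0 fell in model against normal livers, with a median log2 fold change of 2.17 against 0.02 for all genes. Of all genes 20.1% rose and 19.3% fell. Of the 15, 6 met the filter only through the model libraries (Timp1, Plau, Tnf, Ccl2, Mmp12 and Mmp13), and 13 of the 15 calls passed whichever library was left out. None fell at an unadjusted p below 0.05 or in limma voom either. In SAR against model livers 15 of 20 fell and 0 rose, where 16.5% of all genes fell and 12.4% rose. The median was -1.73 against 0.00, 9 of the 15 calls passed whichever library was left out, 0 rose in limma voom, and 1 gene was higher at an unadjusted p below 0.05. In SAR against normal livers 2 of 19 were higher, Mmp12 and Timp1, where 1.73% of all genes were. Both met the filter only through the SAR libraries. Without normal c 5 were higher, where 4.65% of all genes were. Mmp12, a macrophage elastase, had 648, 539 and 723 normalised reads in SAR livers, 2559, 2405 and 2949 in model livers, and 10.6, 6.48 and 6.63 in normal livers. Mmp12 was higher by 8.24 in model than in normal livers (SE 0.22, limma adjusted p = 2.97e-06), and by 6.18 in SAR than in normal livers (SE 0.26, limma adjusted p = 3.22e-05). Plau, the urokinase plasminogen activator, had 29.8, 15.8 and 39.8 normalised reads in SAR livers, 171, 163 and 140 in model livers, and 7.69, 10.8 and 9.94 in normal livers. Plau fell by 2.52 in SAR against model livers (SE 0.34, limma adjusted p = 0.00178). Timp1, an inhibitor of metalloproteinases, had 33.4, 35.1 and 33.4 normalised reads in SAR livers, 366, 234 and 69.3 in model livers, and 0.961, 1.08 and 0 in normal livers. With 905 reads in the model libraries and 2 in the normal ones, the ratio of Timp1 was 328 (exact 95% interval 90.5 to 2711, counting error only). Timp1 fell by 2.38 in SAR against model livers (SE 0.52, limma adjusted p = 0.0112). Its calls for model minus normal and SAR minus model were lost in limma voom (adjusted p = 0.0776 and 0.0915), and that for SAR minus normal (limma adjusted p = 0.0248) without any 1 library but normal c. Mmp13, a collagenase, had 306 reads in model and 1 in normal libraries, a ratio of 222 (exact 95% interval 39.5 to 8783, counting error only). Spp1, which encodes osteopontin, had 1409, 761 and 648 normalised reads in SAR livers, 8355, 9508 and 1768 in model livers, and 362, 567 and 682 in normal livers, with model c far below the other model libraries. Spp1 fell by 2.55 in SAR against model livers (SE 0.59, limma adjusted p = 0.0139), a call lost when SAR b, SAR c, model a or model b was left out.

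Several of these 20 genes are expressed by macrophages and activated stellate cells, and markers of those cells moved in the same comparisons. The 11 macrophage and Kupffer cell markers summed to 4659 to 6457 normalised reads in SAR livers, 13740 to 15125 in model livers and 4561 to 5793 in normal livers. Of them 6 rose and 3 fell in model against normal livers, where 20.1% of all genes rose and 19.3% fell. In SAR against model livers 7 fell, where 16.5% of all genes fell. In SAR against normal livers 5 were higher and 3 lower, where 1.73% and 1.84% of all genes were. The similar sums of SAR and normal livers thus hold changes in both directions. Gpnmb had 789, 580 and 851 normalised reads in SAR and 10.6, 14.1 and 12.1 in normal livers. Clec4f went the other way, with 653, 799 and 1039 in SAR and 1841, 1673 and 1803 in normal livers. The 10 stellate cell and fibroblast markers summed to 3748 to 6833 in SAR, 11155 to 27295 in model and 1155 to 4729 in normal livers. Of them 8 rose in model against normal livers (20.1% of all genes) and 9 fell in SAR against model livers (16.5%). The 8 cholangiocyte markers, Spp1 among them, summed to 1091 to 2198 in SAR, 2421 to 12266 in model and 740 to 1290 in normal livers. Spp1, itself 1 of the 20 genes, made up most of that sum in model a (8355 of 10647) and model b (9508 of 12266). The 10 neutrophil markers summed to 234 to 601 in SAR and 1261 to 2848 in model livers, and to 105, 254 and 7818 in normal livers, the last in normal c. Of 12 acute phase genes 4 could be split by library, and they summed to 6200 to 10067 in SAR and 12353 to 22314 in model livers, and to 6999, 7751 and 79930 in normal livers, again highest in normal c. The 9 T and NK cell markers summed to 188 to 372 in SAR, 605 to 808 in model and 125 to 162 in normal livers. The 8 sinusoidal endothelial cell markers summed to 1346 to 2763 in SAR, 2930 to 3114 in model and 2359 to 4873 in normal livers. Of these 8 markers 1 rose and 4 fell in model against normal livers (20.1% and 19.3% of all genes). In SAR against model livers 2 of them fell (16.5% of all genes). No marker was at 0 in all 3 libraries of a group. The part of these cells in the levels of Klf6, Ier3, Myc, Jun and the reported targets was not tested.

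**Figure D4:**
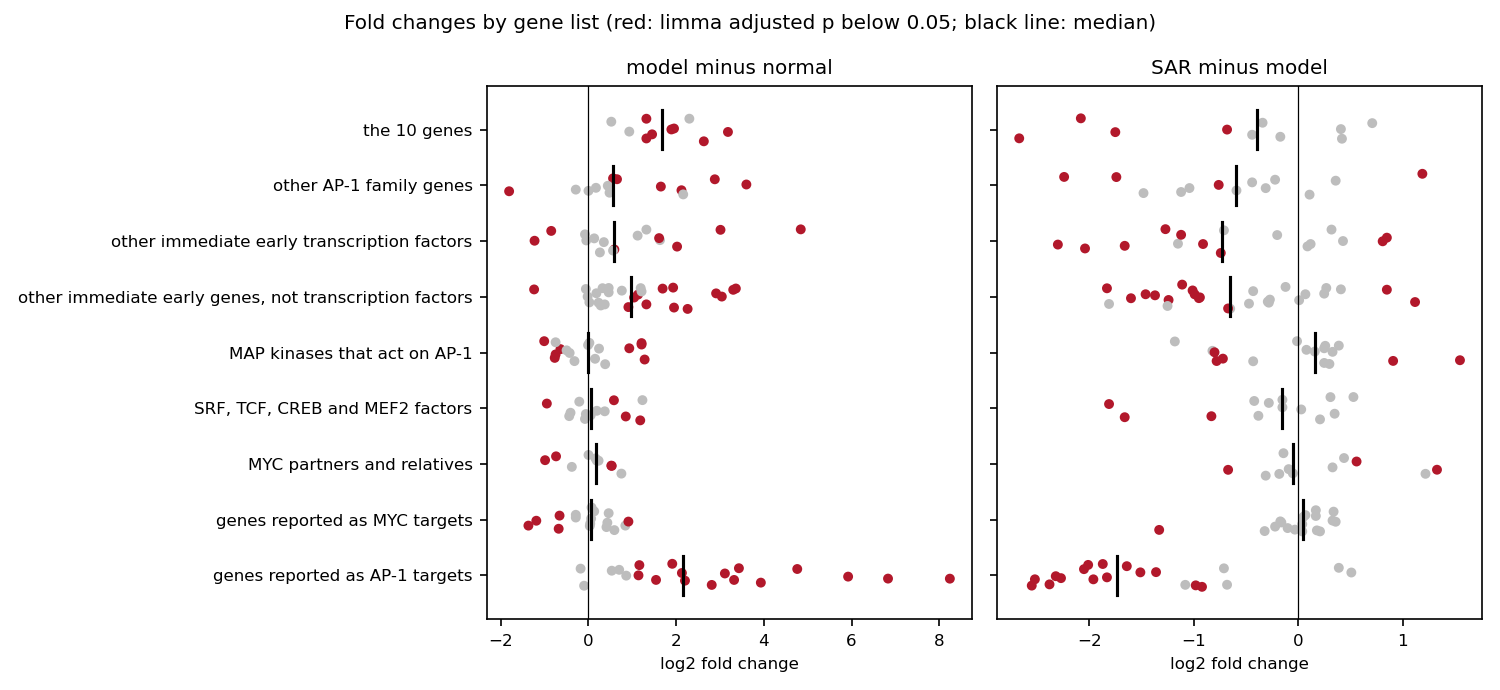
Log2 fold changes (horizontal axes) of each gene tested, by gene list (rows), for model minus normal and SAR minus model; points are genes, red marks a limma adjusted p below 0.05, and black lines are medians. The medians of the genes reported as AP-1 targets lie at 2.17 and -1.73, whereas those of the genes reported as MYC targets lie at 0.06 and 0.05.

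The genes whose levels followed Fos and Myc most closely over the 9 libraries were sought among 12175 genes that are not of the 10, by Pearson's r of log2(value + 1). The 9 libraries fall into 3 groups and share their size factors, so that differences between groups enter r, which is given as a description. Closest to Fos were Mrpl23 (r = 0.974), Tmub2 (0.971), Gdf15 (0.965), Spag7 (0.957) and Wdr44 (0.956). Gdf15, a stress-induced cytokine, had 456, 212 and 191 normalised reads in SAR livers, 360, 458 and 546 in model livers, and 61.5, 31.3 and 79.5 in normal livers. As with Fos, all 6 MCD libraries lay above the normal ones. Closest to Myc were Rcsd1 (0.984), Tpcn2 (0.983), Slc11a1 (0.982), Rbm24 (0.981) and Samd14 (0.981). Slc11a1, a metal transporter of macrophages, had 205, 173 and 159 normalised reads in SAR livers, 637, 646 and 530 in model livers, and 144, 152 and 194 in normal livers. In both Slc11a1 and Myc the SAR libraries stood beside the normal ones and below the model ones.

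In the authors' deposited table of model over normal, adjusted p-values were below 0.05 for 7 of the 10 genes, and in the authors' deposited table of SAR over model for 4, by name those called here. The deposited fold of model over normal in the authors' deposited table was 8.97 for Ier3, 6.02 for Klf6 and 3.91 for Myc. The deposited fold of SAR over model in the authors' deposited table was 0.158 for Ier3, 0.299 for Klf6, 0.236 for Myc and 0.635 for Jun, the last with an adjusted p of 0.0484. In the authors' deposited table Fosb had a fold of 6.77 for model over normal with an adjusted p of 0.19. SAR over normal is not among the tables used here and could be compared only through the recovered reads.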

How the data were processed

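Liver RNA of 9 samples was sequenced. Trizol extraction and a NEBNext Ultra library kit are named in the labels' protocols, and build mm9 in the submitters' processing notes. Aligner, counter, annotation and strand setting were not given in the sources used here. The authors deposited 2 tables with, per the file headers, the signal of each group (mean reads divided by DESeq size factors), the ratio (fold) of the group means, its log2 value, and DESeq p-values.

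A deposited mean is a sum of 3 whole read numbers, each times a constant of its library. Reads were solved from means of 15 digits, and 16332 of 16521 genes were solved in all 9 libraries. For the model group, which both tables hold, 16070 of 16070 genes solved separately in both had the same reads. Recomputed size factors differed from the authors' by at most 0.555%.

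Reads were divided by median-of-ratios size factors over the 9 libraries. Genes with a mean of at least 10 over 6 libraries were tested two-sided in limma 3.58.1 (trended variance, R 4.3.3) on log2(value + 1), a scale that understates changes of low genes, with Benjamini-Hochberg adjustment and a threshold of 0.05. The scripts were tested on simulated data. Of 16521 IDs 16490 matched a symbol. All 10 genes are named, and from each list up to 3 passing genes per direction with the largest change, except that some of these are not reported here. Promoters are RefSeq GRCm38.p6. The genes and lists were chosen with earlier results of these data known. Alternatives were other size factors, pseudocounts, filters and fits, and leaving out each library.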

Additional observations from a re-analysis of the deposited data

How the results depend on the processing

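No paired analysis was possible because the recovered libraries carry no replicate number. The values of the 10 genes under 16 alternatives for model minus normal, and 15 each for SAR minus model and SAR minus normal, kept direction and side of the threshold in 150 of 157, 144 of 149 and 137 of 147 cases. The log2 fold change of SAR minus model turned to 0.04 for Fos without model b (range when 1 library was left out -0.45 to 0.04) and to -0.88 for Fosb without SAR b (range -0.88 to 1.50). With 1 library left out, genes called numbered 2423 to 5731 for model minus normal (4864 with all; 2423 without model b, 2662 without model a, 2889 without normal a). For SAR minus model they numbered 1521 to 5130 (3589 with all; 1521 without model b, 1617 without model a, 1776 without SAR b, 2195 without SAR c). For SAR minus normal they numbered 6 to 1082 (417 with all; 6 without SAR a, 8 without normal b, 18 without SAR b, 28 without normal a, 53 without SAR c, 1082 without normal c), and of the 10 genes 0 to 5 passed. Why single libraries move these counts was not tested. Fosb passed for model minus normal with the authors' size factors, upper quartile scaling, no filter or a robust variance. It did not pass in limma voom (adjusted p = 0.122) or with all 9 libraries fitted together (limma adjusted p = 0.107). With 1 library left out Fosb was tested in 5 fits and passed in 0 (limma adjusted p 0.0671 to 0.101). Upper quartile scaling put the median of all genes at 0.12 for model minus normal, against 0.02. The counts of other gene lists without normal c or model c were chosen after seeing the data. Read numbers were lowest for Fosb and Ier3.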
